A study of Homo sapiens with 267 samples.

Results

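The count table of the study held 267 libraries of K562, a human line grown from a chronic myeloid leukaemia that carries the BCR-ABL1 fusion and expresses embryonic and fetal globins. Of these, 12 were bulk-like and 231 were single-cell-like, and 24 were in neither kind. The kinds were chosen by measured values and not by a label. A library was bulk-like where 10000 or more genes had more than 2 reads, and single-cell-like where fewer genes passed and at most 70% of the reads on genes lay in its 500 most abundant genes. The labels used here do not mark which libraries were made from a cell, from RNA of many cells or from an empty capture site, nor which cells were fixed, and every difference between the kinds below is therefore a description with no test. Since fewer cells and less RNA per cell cannot be told apart in such libraries, the names bulk-like and single-cell-like stand only for the rule.

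The libraries fell into 3 runs by the prefix of their titles. By the study's methods cells were captured on the C1, a microfluidic instrument with separate chambers. There cells are lysed and their RNA is reverse transcribed and amplified. Fresh and fixed cells of an experiment were captured on different days, so a run can pool more than 1 capture. The study's bulk controls were amplified in tubes. In the Hoechst run (96 libraries) the K562 cells were untreated and were stained with 2 µM Hoechst and 3.75 µM propidium iodide, and 5 libraries were bulk-like and 77 single-cell-like. For the benzene run (75 libraries) cells stained with CellTracker Green were untreated and cells stained with CellTracker Orange had 10 mM benzene for 3 h, and 3 libraries were bulk-like and 63 single-cell-like. For the imatinib run (96 libraries) Green again marked untreated cells and Orange marked cells given 1 µM imatinib, an inhibitor of the ABL1 kinase, for 1 h, and 4 libraries were bulk-like and 91 single-cell-like. The bulk-like kind held 1 Green and 2 Orange libraries in the benzene run and 2 of each in the imatinib run. Both dyes were therefore pooled in each kind, and all comparisons were made within a run.

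A cell holds few copies of most mRNAs, transcribes many genes in bursts, and loses a share of its mRNA molecules at reverse transcription. A gene that is expressed on average can therefore be missing from the library of 1 cell, which is called dropout. RNA from many cells averages over bursts and over molecules lost. ERCC sequences, synthetic RNAs added in a fixed amount, give a scale for how much cellular RNA entered a library.

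The bulk-like libraries held 10215 to 11651 genes at more than 2 reads in the Hoechst run, 11248 to 11773 in the benzene run and 10750 to 12134 in the imatinib run. The single-cell-like libraries had a lowest, median and highest number of 2871, 7397 and 9770 in the Hoechst run, 3959, 5871 and 8394 in the benzene run, and 5201, 7995 and 9918 in the imatinib run. The libraries just inside and just outside the limit of 10000 genes were at 10215 and 9770 in the Hoechst run, at 11248 and 8394 in the benzene run and at 10750 and 9918 in the imatinib run. Within the benzene run the single-cell-like library nearest the other limit had 69.8% of its reads in its 500 top genes and the nearest library left out had 70.02%. The total of reads on genes did not separate the kinds, at 784830 to 1788200 in bulk-like and 50358 to 2043400 in single-cell-like libraries. The rule used no label, and every bulk-like library had a title number of 92 or higher (92 to 96, 92 to 94 and 93 to 96 in the Hoechst, benzene and imatinib runs). Of the 231 single-cell-like libraries, 3 had a title number above 90. Another 1 had no matching title, and the number that ends its column name was also above 90.

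**Figure D1:**
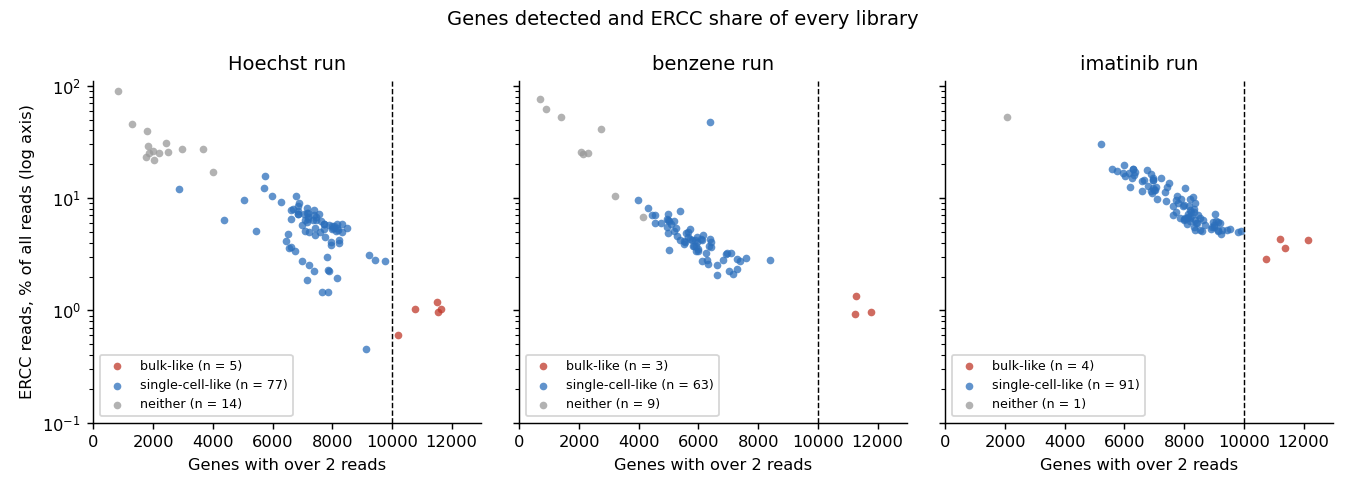
Share of all reads on ERCC sequences (vertical axis, percent, log scale) against genes at more than 2 reads (horizontal axis), 1 panel per run and 1 point per library, coloured by kind, with a dashed line at 10000 genes. The bulk-like libraries lie right of the line, which the rule set, and at low ERCC shares of 0.602% to 1.19%, 0.933% to 1.34% and 2.90% to 4.30%. The rule did not use these shares, but they are tied to the reads on genes that it counted.

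The ERCC share was not part of the rule, but it is tied to the reads on genes that the rule counted. It is therefore no independent support for the kinds. It was 0.602% to 1.19% in the bulk-like and a median of 5.59% in the single-cell-like libraries of the Hoechst run, 0.933% to 1.34% against 4.20% in the benzene run, and 2.90% to 4.30% against 8.43% in the imatinib run. A single-cell-like library at or below the highest bulk-like share was found once among 77 in the Hoechst run and in 0 of 63 and 0 of 91 in the other runs. Pairs of bulk-like libraries correlated more closely (Pearson's r of log2 CPM over genes, where CPM is reads per 1000000 reads on genes) than pairs of single-cell-like ones. The bulk-like pairs were at 0.799 to 0.944, 0.901 to 0.913 and 0.899 to 0.946 and the single-cell-like pairs at medians of 0.478, 0.454 and 0.554 in the Hoechst, benzene and imatinib runs. Genes are not independent replicates, so these values are descriptions.

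A pair of libraries of the Hoechst run stood apart from their kind. The single-cell-like library 91 (the number in its title) had 9138 genes, the lowest ERCC share of the run at 0.458%, and r = 0.892 with the bulk-like mean, where the median single-cell-like library had r = 0.616. The bulk-like library 92 had the fewest genes of its kind and correlated with the other bulk-like libraries at only 0.724 to 0.821 over 7519 genes, against 0.926 to 0.953 among those. Results that turn on library 92 are given with and without it. Library 91 was kept in its kind, and the counts of genes that differ between the kinds are also given without it. In the benzene run, 4 columns matched no title, and the 1 of them that was single-cell-like had 47.8% of its reads on ERCC sequences.

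The bulk-like libraries were not all alike, and a few genes, singled out after their values were seen, split those of each run. MALAT1, a long non-coding RNA retained in the nucleus, was at 2314 CPM in library 92 of the Hoechst run and at 30839, 29769, 35116 and 37901 CPM in libraries 93 to 96. For the benzene run it was at 882 CPM in library 92 and at 6865 and 4827 CPM in libraries 93 and 94. Within the imatinib run it was at 346 and 540 CPM in libraries 93 and 94 and at 2165 and 1404 CPM in libraries 95 and 96. With so few libraries per run, the lowest always lie apart from the rest by order alone, so these sets are a description. How many other genes give the same sets was not counted. The share of reads on mitochondrially encoded genes fell into the same sets, at 4.10% in library 92 against 16.9% to 24.9% in the Hoechst run, 1.95% in library 92 against 6.52% and 5.18% in the benzene run, and 1.38% and 1.55% in libraries 93 and 94 against 4.53% and 3.76% in the imatinib run. NEAT1, the RNA scaffold of nuclear paraspeckles, was at 47.4 CPM against 1546 to 2027 in the Hoechst run, 29.04 against 144 and 137 in the benzene run, and 18.5 and 2.74 against 137 and 65.3 in the imatinib run. HSPA5, a chaperone of the endoplasmic reticulum, had the opposite order, at 3533 CPM in library 92 against 485 to 816 in the Hoechst run, 3002 against 1434 and 2213 in the benzene run, and 1191 and 1383 against 665 and 685 in the imatinib run. The stain did not follow this split in the imatinib run, where libraries 93 and 95 were Green and 94 and 96 Orange. Libraries 93 and 94 differed at least 2-fold in 602 of 7469 genes and libraries 95 and 96 in 660, whereas the pairs of like stain, 93 with 95 and 94 with 96, differed in 1275 and 1449. MKI67, a nuclear protein of dividing cells, split the bulk-like libraries in 2 runs (11.9 CPM against 138 to 172 in the Hoechst run and 3.49 against 37.8 and 34.2 in the benzene run) and not in the imatinib run (21.8, 11, 15.2 and 14.1 CPM in libraries 93 to 96). The single-cell-like libraries were between and beyond these levels, with a lowest, median and highest MALAT1 level of 1049, 6648 and 34130 CPM, 69.6, 1252 and 10635 CPM, and 342, 949 and 5791 CPM in the Hoechst, benzene and imatinib runs. Not every gene that set library 92 apart split the other runs. APH1A, a subunit of gamma-secretase, was at 57.2 CPM in library 92 against 13.1 to 21.7 CPM in the Hoechst run, and at 50.5 CPM in library 92 against 44.7 and 65.1 CPM in the benzene run. What the split stands for was not tested.

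Dropout followed the level that a gene had in the bulk-like libraries. A gene counted as missing from a library with at most 2 reads of it. Since the rule chose bulk-like libraries by the number of genes above 2 reads, fewer missing genes in them are built in, and the values describe at which levels genes were missed. Of the genes at 10 to 30 CPM in the bulk-like mean, the median single-cell-like library missed 43.8% in the Hoechst run, 61.5% in the benzene run and 34.1% in the imatinib run, where the median bulk-like library missed 0.32%, 0.407% and 0.214%. At 1 to 3 CPM the single-cell-like medians were 87%, 89.7% and 83.1%. At 100 to 300 CPM they were 3.28%, 15.3% and 3.33%, and at 1000 CPM or more all 3 medians were 0%. Missing genes were thus mostly genes of low bulk-like level, and the benzene run missed the most in each of these bins below 1000 CPM. Genes that were present were present at a higher level than in bulk-like libraries when their bulk-like level was low. The median ratio of the mean over libraries holding the gene to the bulk-like mean was 12.1, 12.7 and 9.06 at 1 to 3 CPM and 2.90, 3.12 and 2.20 at 10 to 30 CPM in the Hoechst, benzene and imatinib runs. At 1000 CPM or more it was 0.592, 0.955 and 0.736. Part of the high ratios at low levels follows from the limit of 2 reads, which a library must pass to be counted. The spread between libraries showed the same contrast, with a median SD of log2 CPM per gene at 10 to 100 CPM of 0.52, 0.44 and 0.44 over bulk-like and 2.43, 2.50 and 2.20 over single-cell-like libraries. This contrast is in part built in as well, since missing genes widen the spread.

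**Figure D2:**
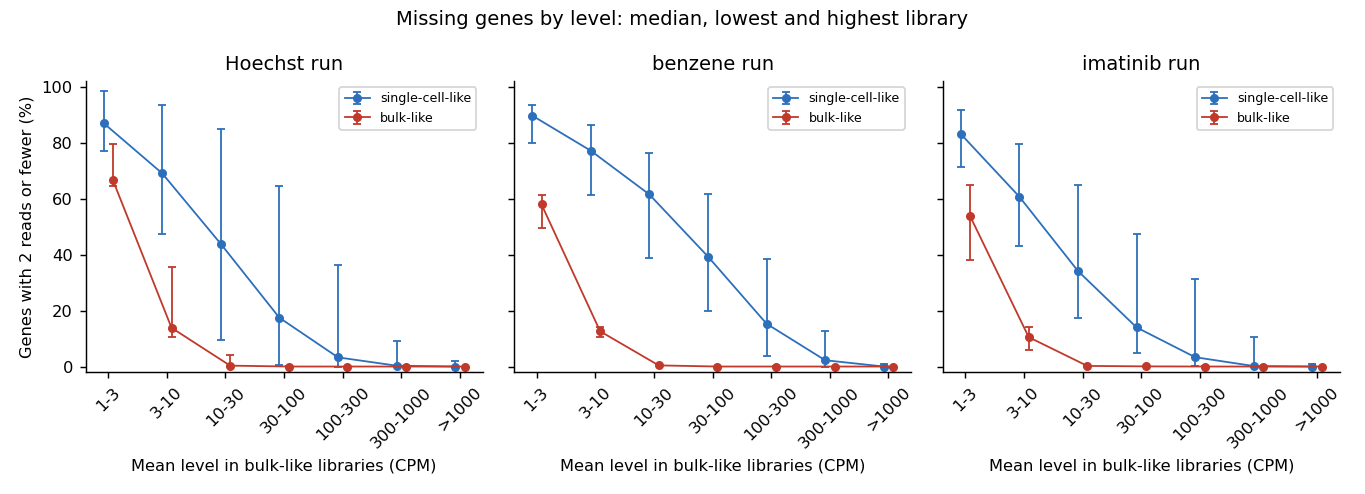
Genes with at most 2 reads in a library (vertical axis, percent of the genes in a bin) by the genes' mean level in the bulk-like libraries (horizontal axis, bins of CPM), 1 panel per run, with points at the median library of each kind and bars from the lowest to the highest library. The single-cell-like medians are 43.8%, 61.5% and 34.1% at 10 to 30 CPM and 0% at 1000 CPM or more, and the bulk-like medians are below 1% from 10 CPM upwards.

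The ERCC sequences, which are no cellular RNA, showed dropout by abundance as well. The sequences were grouped by their mean share of ERCC reads in the bulk-like libraries. Of those at 100 to 1000 parts per 1000000, the single-cell-like libraries missed a median of 46.7%, 71.4% and 27.8% in the Hoechst, benzene and imatinib runs. The bulk-like libraries missed 40%, 33.3% and 2.78%, given as means over these few libraries. From 1000 to 10000 parts per 1000000 the single-cell-like medians were 8.33%, 10.53% and 0%, and the bulk-like value was 0% in each run. Among single-cell-like libraries the benzene run had the highest dropout here too. Among bulk-like ones the Hoechst run had it, at 100 to 1000 parts per 1000000. Bulk-like libraries had fewer ERCC reads, and the comparison is not at equal ERCC depth.

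Few genes were confined to bulk-like libraries. Such a gene had to stay at or below 2 reads in each of 77, 63 or 91 single-cell-like libraries, so low counts are largely built in. Of the genes with more than 2 reads in every bulk-like library of a run, none was at or below 2 reads in every single-cell-like library of the Hoechst run (0 of 8495, 0%) or of the imatinib run (0 of 9311, 0%), and 7 of 9556 (0.0733%) were in the benzene run. For a gene chosen beforehand, 0 of 63 independent libraries would allow a share of up to 4.76% of such libraries. These 7 genes were picked for that count, so no such limit holds for them. The 5 of these 7 genes with a symbol, named after their values were seen, were MIR4453HG, SPRR2D, PAIP2B, RND2 and CCDC27, and all were low. PAIP2B, an inhibitor of poly(A)-binding protein, was at 2.32, 2.58 and 3.95 CPM in the 3 bulk-like libraries and had no read in 63 single-cell-like ones. RND2, a small GTPase, was at 3.49, 2.58 and 2.63 CPM and reached at most 2 reads in each of the 63. In the imatinib run both were found in single-cell-like libraries, PAIP2B in 3 of 91 and RND2 in 11 of 91, and with counts of 0 in the other runs no gene was seen only in bulk-like libraries in more than 1 run. These counts depend on single bulk-like libraries and on the dyes pooled. Without library 92, 93 or 94 of the benzene run the count there was 33, 41 or 30, and against its untreated Green single-cell-like libraries alone it was 57. Without library 93, 94, 95 or 96 of the imatinib run the count was 4, 2, 1 or 1, and without library 92, 95 or 96 of the Hoechst run it was 1. A gene held by every bulk-like library was in every single-cell-like library for 698, 616 and 1084 genes of the Hoechst, benzene and imatinib runs, and in under 5% of them for 4, 163 and 15.

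CD82 and ANXA6 were among the genes that every bulk-like library held and the fewest single-cell-like libraries did. CD82, a tetraspanin of the cell surface (chr11:44585977-44641908, GRCh37), was at 13.3, 21.9, 16.1, 20.1 and 16.6 CPM in the bulk-like libraries of the Hoechst run and was missing from 67 of 77 single-cell-like ones. It was missing from 61 of 63 in the benzene run and from 87 of 91 in the imatinib run. ANXA6, a calcium-dependent membrane-binding protein (chr5:150480267-150537376), was at 9.07, 5.05, 7.58, 11.1 and 16.6 CPM in the bulk-like libraries of the Hoechst run and missing from 70 of 77, and it was missing from 59 of 63 and 85 of 91 in the other runs. In a few single-cell-like libraries such genes were high, with CD82 reaching 464 CPM in the Hoechst run and ANXA6 reaching 231 CPM in the benzene run. The other 8 genes of this set were SH2D1B, SLC25A35, EFHC2, ZC2HC1C, NUDT17, TFIP11-DT, TMEM53 and NINJ2.

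The reverse set was defined after the data were seen and by a looser rule. It asked for absence from the few bulk-like libraries and presence in only 20% of the single-cell-like ones. Its size can therefore not be set against the counts above. Of the genes at more than 2 reads in at least 20% of single-cell-like libraries, 218 of 10424 (2.09%) in the Hoechst run, 119 of 8949 (1.33%) in the benzene run and 176 of 10496 (1.68%) in the imatinib run had at most 2 reads in every bulk-like library. This held in all 3 runs for 9 genes, among them the non-coding RNA LINC00342 (chr2:96472800-96500751) and the tight junction gene CLDN15. LINC00342 had 1 read over the 5 bulk-like libraries of the Hoechst run and none over those of the benzene and imatinib runs. It passed 2 reads in 17 of 77, 18 of 63 and 33 of 91 single-cell-like libraries, with highest levels of 143, 355 and 173 CPM. Against the level that 3 reads over the group would give, its mean was at least 35.4-fold higher in single-cell-like libraries of the benzene run and at least 21.8-fold higher in those of the imatinib run. Most of the other members were close copies of each other or of other genes, including NPIPA5, NPIPA7, NPIPA8 and CSAG3, whose reads the counting of unique alignments can split, and their levels are uncertain.

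When the reads of all single-cell-like libraries of a run were summed and 1000000 of them drawn, the pool held more genes than any bulk-like library drawn to the same number. The pool held 12504 genes in the Hoechst run against 9453 to 11372 in the 3 bulk-like libraries deep enough, 11531 against 10205 to 10882 (n = 3) in the benzene run and 11664 against 9966 to 10972 (n = 4) in the imatinib run. Single libraries drawn to 1000000 reads held medians of 6968, 5668 and 7819 genes. The pool summed 77, 63 and 91 libraries, and the labels do not say which bulk-like libraries were the study's bulk controls. By the study's methods those controls were RNA extracted by a column kit from a set number of fresh or fixed cells and amplified in tubes beside each run.

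The mean over single-cell-like libraries followed the bulk-like mean, with r = 0.884, 0.820 and 0.909 between the log2 means of genes in the Hoechst, benzene and imatinib runs. Genes were compared where the mean of both kinds was at least 5 CPM, and a gene was called where log2(mean CPM + 1) differed by 1 or more. In the Hoechst run 2986 of 10293 genes were higher in single-cell-like libraries (29%) and 231 in bulk-like ones (2.24%). Without library 91 these counts were 3029 (29.4%) and 242 (2.35%) of 10308 genes. Within the benzene run 2000 of 9824 genes were higher in single-cell-like (20.4%) and 1453 in bulk-like libraries (14.8%), and in the imatinib run 1753 (18.2%) and 327 (3.39%) of 9653. In all 3 runs alike, 498 of 8741 genes (5.7%) were higher in single-cell-like and 20 (0.229%) in bulk-like libraries. These splits rest on the scaling. The median of all genes lay at 0.55, 0.07 and 0.21 towards single-cell-like libraries, and single-cell-like libraries made up 92.8%, 57.9% and 84.3% of the calls. With TMM factors their part was 81.9%, 64.7% and 75.2%, and with that median set to 0 it was 58.7%, 53.7% and 65.8%. The splits also rest on the arithmetic mean, which a few libraries with very high levels can carry. With geometric means, only 160, 47 and 204 genes were higher in single-cell-like and 4222, 6427 and 3784 in bulk-like libraries of the Hoechst, benzene and imatinib runs. The median difference also varied with bulk-like level, here with no filter and over bins of 1 to 3, 3 to 10, 10 to 30, 30 to 100, 100 to 300, 300 to 1000 and at least 1000 CPM. It was 0.14, 0.60, 0.62, 0.40, 0.19, -0.29 and -0.75 in the Hoechst run. It was -0.14, 0.17, 0.13, -0.16, -0.28, -0.27 and -0.07 in the benzene run and 0.22, 0.43, 0.36, 0.07, -0.21, -0.42 and -0.44 in the imatinib run. The order was thus not the same throughout: the medians were highest at 3 to 30 CPM in each run and lowest in the top bin only in the Hoechst and imatinib runs. A gene under 5 CPM in bulk-like libraries passes the filter only where it is higher in single-cell-like ones, so its direction among the calls is set by the filter.

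The genes with the largest difference towards single-cell-like libraries in the run where it was smallest were CHTF18, PABPC1L, LINC01203, TAFAZZIN, DUS1L, PKD1, MZF1, GOLGA8B, ABCA7 and WDR27. Only DUS1L had a bulk-like mean of at least 5 CPM in every run. CHTF18 (1.73, 0 and 1.49 CPM) and MZF1 (2.85, 1.07 and 0.578 CPM) were below it in all 3 runs, and the others in at least 1. There they passed the filter only through single-cell-like libraries, and their direction was set by it. CHTF18, a subunit of a clamp loader used in sister chromatid cohesion (chr16:838046-850737), was at 0, 0.841, 0.947, 3.02 and 3.82 CPM in bulk-like libraries of the Hoechst run, and its lowest, median and highest levels in single-cell-like ones were 0, 8.03 and 278 CPM. It had no read in the bulk-like libraries of the benzene run, where the single-cell-like mean was at least 21.7-fold above the level of 3 reads over the group, although 38 of 63 single-cell-like libraries missed it. For the imatinib run it was at 0.559, 2.06, 0.634 and 2.69 CPM in bulk-like libraries and at a median of 5.13 and a highest level of 395 CPM in single-cell-like ones. The groups overlapped, and the high means came from a part of the libraries. DUS1L, which modifies transfer RNA (chr17:80015382-80023763), was at 18.5, 11.6, 19.7 and 28.3 CPM in the bulk-like libraries of the imatinib run and at 0, 87.6 and 625 CPM (lowest, median and highest) in the single-cell-like ones, with 64 of 91 above the highest bulk-like library. Its difference was 2.74 ± 0.28 on the log2 scale there (SE from the spread between libraries, n = 4 and 91), 3.02 ± 0.39 in the Hoechst run (n = 5 and 77) and 2.71 ± 0.78 in the benzene run (n = 3 and 63). Libraries of a run are not known to come from separate cultures, and the kinds pool stains. These genes were also picked by this difference, so each SE here is a description and no test. With the limit of the rule lowered by 500 genes, the smallest difference over the runs was -0.045 for CHTF18 and -0.12 for DUS1L. PKD1, which encodes the large membrane protein polycystin-1 (chr16:2138709-2185899) and has near-identical pseudogene copies that make its count uncertain, was at 2.79 to 11.4 CPM in bulk-like libraries of the Hoechst run and at a median of 13.7 CPM in single-cell-like ones. It was missing from 21 of 77, 37 of 63 and 29 of 91 single-cell-like libraries.

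The genes with the largest difference towards bulk-like libraries were SDHC, DNAJC14, RIC8A, NCKAP1L, WDR6, RCC1, APH1A, SPARC, HNRNPK and MAGEA3. SDHC, a membrane subunit of succinate dehydrogenase (chr1:161284171-161332996), was at 80.2, 48.8, 34.1, 20.1 and 22.9 CPM in bulk-like libraries of the Hoechst run and at 0, 0.792 and 64.1 CPM (lowest, median and highest) in single-cell-like ones. In the benzene run it was at 63.3, 37 and 40.1 CPM in bulk-like libraries against a median of 0 CPM, and in the imatinib run at 113, 104, 71 and 62.6 CPM against a median of 5.22 CPM. The single-cell-like libraries below the lowest bulk-like one were 67 of 77, 59 of 63 and 87 of 91, and the differences were -2.40 ± 0.46, -2.53 ± 0.54 and -2.47 ± 0.29. HNRNPK, an RNA-binding protein that acts in splicing and translation (chr9:86582998-86595546), was well covered in nearly all single-cell-like libraries and still lower in them. Its bulk-like levels were 1170, 464, 526, 400.0 and 311 CPM in the Hoechst run, 779, 607 and 635 CPM in the benzene run and 460, 753, 433 and 315 CPM in the imatinib run. The single-cell-like medians were 160.0, 69 and 211 CPM, only 2 of 63 and 2 of 91 libraries of the benzene and imatinib runs missed it, and 66 of 77, 61 of 63 and 69 of 91 were below the lowest bulk-like library. NCKAP1L, the blood-cell member of an actin-regulating complex (chr12:54891536-54942027), was at 22.9 to 88.3, 33.5 to 56.6 and 14.1 to 31.5 CPM in bulk-like libraries and at medians of 3.10, 0 and 0 CPM in single-cell-like ones. Several of these genes rested on library 92. Without it, 6 of the 10 were still called in the Hoechst run. The difference there was -0.40 for MAGEA3, -0.96 for WDR6 and -0.90 for APH1A, and SPARC was under the filter on level. The genes higher in bulk-like libraries in all 3 runs then numbered 9 in place of 20. All 10 genes named for single-cell-like libraries were still called without library 92.

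**Figure D3:**
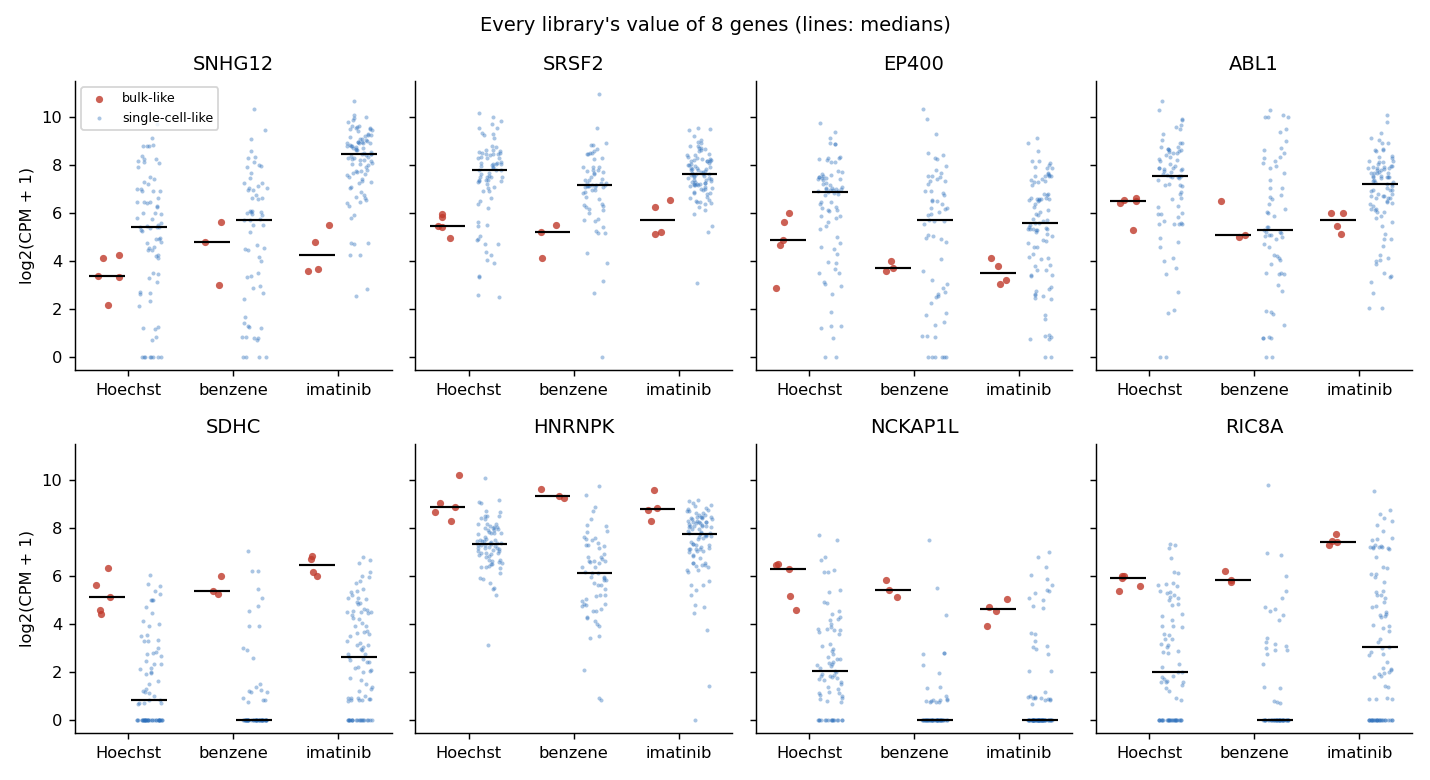
Level of 8 genes, log2(CPM + 1) on the vertical axis, in every bulk-like and single-cell-like library of the 3 runs, 1 panel per gene and 1 point per library, with lines at the medians. The upper row shows genes with a higher mean in single-cell-like libraries and the lower row genes with a higher mean in bulk-like ones, and single-cell-like libraries reach from near 0 to above the bulk-like ones for most of them.

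Some genes were missing more often or less often than their level would give. For each gene at 5 CPM or more in bulk-like libraries, the median dropout of genes at the same bulk-like level was taken off. Genes 20 percentage points or more above this median made up 8%, 9.48% and 13.7% of those compared in the Hoechst, benzene and imatinib runs, and genes as far below it 8.47%, 14.1% and 8.7%. In all 3 runs 159 of 7935 genes (2%) were above. Of the genes at 50 CPM or more, the most missed included RIC8A, CD99L2, MAGEA1, RHD, RNF41, KIF20A, MAGED2, CAPG and FBXO6. RIC8A, a chaperone of G protein alpha subunits (chr11:207708-215113), was at 167, 153, 175 and 213 CPM in bulk-like libraries of the imatinib run and was missing from 32 of 91 single-cell-like ones, 33 points above its level. It was missing from 36 of 77 and 43 of 63 in the Hoechst and benzene runs, at 29.9 and 33.3 points above. RHD, which carries the Rh D antigen of red cells (chr1:25598884-25656936) and has the close copy RHCE that makes its count uncertain, was at 89.3, 103, 96.6, 99.7 and 75.2 CPM in bulk-like libraries of the Hoechst run and missing from 37 of 77, with levels up to 1042 CPM in others. CD99L2 was missing from 46 of 77, 53 of 63 and 49 of 91, but in the Hoechst run it reached 50 CPM only through library 92, at 220 CPM there against 10.1 to 18.9 CPM in the others. Without library 92 its bulk-like mean was 15.5 CPM and its dropout 9.74 points above its level. MAGEA1 was at 139 CPM in library 92 against 16.6 to 36.2 CPM, and without it at a mean of 28.8 CPM and 20.8 points above its level. Of the 10 genes most missed, 7 were at 50 CPM or more without library 92.

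At the other end, TRA2A, FRG1, EIF3CL, SNHG6, OGT, PCNT, RBX1, EZH2, NUP153 and RABGGTB were missing least for their level. They lay at -15.6 to -9.09 points from it in the Hoechst run, -34.9 to -12.7 in the benzene run and -11 to -8.79 in the imatinib run. None thus reached 20 points in the Hoechst or imatinib run. Dropout of these genes was at most 5.19% in those runs and could lie little lower, so their rank rests on a floor. OGT, the enzyme that adds O-linked N-acetylglucosamine to proteins (chrX:70752937-70795742), was at 40.5, 103, 88.1, 86.6 and 72.6 CPM in bulk-like libraries of the Hoechst run and at 4.43, 359 and 1454 CPM (lowest, median and highest) in single-cell-like ones. It was missing from 0 of 77, 0 of 63 and 1 of 91, and its difference was 2.57 ± 0.23, 2.74 ± 0.31 and 1.73 ± 0.16. EZH2, the methyltransferase of the Polycomb repressive complex (chr7:148504349-148581413), was missing from none of the 231 libraries, with single-cell-like medians of 244, 238 and 186 CPM against bulk-like means of 73.3, 172 and 84 CPM. TRA2A, a splicing regulator (chr7:23544399-23571660), was also in all 231, with a difference of 2.28 and 1.21 in the Hoechst and imatinib runs and 0.18 ± 0.41 in the benzene run. EIF3CL and EIF3C are near-identical copies, and that count is uncertain.

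Of 19 gene lists, all chosen with earlier results of these data known, the 30 very long genes of the cytoskeleton and chromatin were among the groups furthest towards single-cell-like libraries. The medians below are read against 0.55, 0.07 and 0.21 over all genes. With that median set to 0 a positive list median below it turns negative, as for the G1/S list in all 3 runs, the G2, heat-shock, globin, surface, mitochondrial and K562 lists of the Hoechst run, the splicing factors of the benzene run, and the G2 and ATF4 lists of the imatinib run. Of the very long genes 9, 19 and 15 were higher in single-cell-like libraries in the Hoechst, benzene and imatinib runs, where 29%, 20.4% and 18.2% of all genes were, and none was higher in bulk-like ones. The list's median was 0.76, 1.22 and 0.98 against 0.55, 0.07 and 0.21 over all genes. EP400, a chromatin remodeller (chr12:132434487-132565005), was at 12.2, 11.2 and 15.1 CPM in bulk-like libraries of the benzene run and at a median of 51.8 CPM in single-cell-like ones, 41 of 63 of which were above all 3. Within the imatinib run it was at 7.27, 8.22, 16.5 and 12.8 CPM against a median of 47.1 CPM, with 65 of 91 above. HERC2, a giant ubiquitin ligase (chr15:28356186-28567325), differed by 1.72 ± 0.31, 2.54 ± 0.34 and 1.65 ± 0.38. The Hoechst values rest in part on library 92, where the list summed to 1610 CPM against 3940 to 4147 CPM in the other bulk-like libraries. Without it 5 of 30 genes were called there and the median was 0.55, as for all genes.

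Transcription factors and early-response genes, which are often transcribed in bursts, were mostly above the median of all genes, for 13 of 16, 11 of 14 and 12 of 16 of the factors and 11 of 17, 15 of 19 and 13 of 17 of the early genes. Of the erythroid and progenitor transcription factors 7 of 16, 5 of 14 and 6 of 16 were higher in single-cell-like libraries (against 29%, 20.4% and 18.2% of all genes), at medians of 0.92, 0.64 and 0.77. Of the factors compared, 1, 1 and 3 were under 5 CPM in bulk-like libraries. These passed the filter only through their level in single-cell-like ones. TAL1, a factor of the erythroid programme (chr1:47681962-47697897), was at 25.8, 46.2, 56.8, 50.4 and 62.4 CPM in bulk-like libraries of the Hoechst run and at a median of 77.5 CPM in single-cell-like ones, and differed by 1.39 ± 0.25, 1.22 ± 0.41 and 1.46 ± 0.28. E2F2, a factor of cell cycle entry, differed by 1.49 ± 0.32, 1.05 ± 0.55 and 1.49 ± 0.35, but its median single-cell-like level in the Hoechst run, 6.78 CPM, was below every bulk-like library (15.2 to 27.7 CPM), and its higher mean came with 30 of 77 libraries above all 5 bulk-like ones. Of the immediate-early genes 6 of 17, 10 of 19 and 8 of 17 were higher (against 29%, 20.4% and 18.2% of all genes), at medians of 0.68, 1.10 and 0.91. Of 28 genes listed the others were too low to compare, and 1, 6 and 4 of those compared were under 5 CPM in bulk-like libraries and passed only through their level in single-cell-like ones. JUN, a subunit of the AP-1 factor, was at 0.841 to 2.55 CPM in bulk-like libraries of the Hoechst run and at 0, 1.79 and 270 CPM in single-cell-like ones. KLF10, an early gene of the TGF-beta response, was not called in the Hoechst and imatinib runs and differed by -1.20 ± 0.49 in the benzene run.

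RNAs that are processed or kept in the nucleus were divided. Of the long non-coding RNAs and snoRNA host genes 11 of 23, 7 of 22 and 9 of 21 were higher in single-cell-like libraries (against 29%, 20.4% and 18.2% of all genes), at medians of 0.90, 0.54 and 0.39. SNHG1, whose introns hold snoRNAs (chr11:62619450-62623425), was at 50.9, 81.6, 99.4, 98.7 and 96.8 CPM in bulk-like libraries of the Hoechst run and at a median of 312 CPM in single-cell-like ones, 65 of 77 of which were above all 5. Its difference was alike in the runs, at 2.30 ± 0.22, 2.19 ± 0.25 and 2.09 ± 0.23. SNHG12, of the same kind (chr1:28905050-28909644), was at 3.49, 9.25, 9.47, 18.1 and 16.6 CPM against a median of 41.9 CPM in the Hoechst run and at 11.7, 11, 45 and 26.9 CPM against 350 CPM in the imatinib run, where 84 of 91 were above all 4. MALAT1 went the other way in the Hoechst and benzene runs, with differences of -1.72 ± 0.36 and -1.20 ± 0.64, and was not called in the imatinib run at 0.21 ± 0.56. This direction did not hold against every bulk-like library. Library 92 of the Hoechst run (2314 CPM) and library 92 of the benzene run (882 CPM) were below the single-cell-like medians of 6648 and 1252 CPM.

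Among 29 SR and hnRNP splicing factors 7, 6 and 9 were higher in single-cell-like libraries (against 29%, 20.4% and 18.2% of all genes) and 2, 3 and 1 in bulk-like ones (against 2.24%, 14.8% and 3.39%), at medians of 0.59, 0.04 and 0.28 that were close to those of all genes. The members went in opposite directions. SRSF2, an SR protein (chr17:74730197-74733415), was at 16.3, 44.7 and 36.2 CPM in bulk-like libraries of the benzene run and at a median of 141 CPM in single-cell-like ones, and differed by 2.50 ± 0.23, 2.62 ± 0.43 and 1.95 ± 0.36. SRRM2, a large scaffold of nuclear speckles (chr16:2802627-2822539), was at 65.4, 50.7, 61.5 and 98.3 CPM in bulk-like libraries of the imatinib run and at a median of 213 CPM, with 87 of 91 single-cell-like libraries above. HNRNPK, described above, was lower in all 3 runs.

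Housekeeping groups of high level lay below the median of all genes in the Hoechst and imatinib runs and on both sides of it in the benzene run. The 78 cytosolic ribosomal protein genes compared had a median of -0.56 in the Hoechst run and -0.64 in the imatinib run, where 6 and 9 were higher in bulk-like libraries (against 2.24% and 3.39% of all genes), and of 0.37 in the benzene run, where none was (against 14.8%). RPS20, of the small subunit, was at 805 to 912 CPM in bulk-like libraries of the Hoechst run and at a median of 408 CPM in single-cell-like ones, 76 of 77 of which were below all 5. In the imatinib run all 91 were below the lowest bulk-like library (783 to 1144 CPM in bulk-like libraries, median 397 CPM). For the benzene run the levels overlapped, at 512, 523 and 559 CPM against a median of 522 CPM. The 35 nuclear-encoded respiratory chain subunits had medians of -0.09, 0.23 and -0.48, the 19 glycolytic enzymes -0.23, -0.19 and -0.41, and the 30 proteasome subunits -0.27, -0.02 and -0.15. Without library 92 the Hoechst medians of the glycolytic and proteasome lists were 0.13 and -0.13. LDHA, lactate dehydrogenase A, was at 8251 CPM in library 92 and at 2570.0 to 3854 CPM in the other bulk-like libraries of that run, with a single-cell-like median of 1871 CPM.

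Of the 15 mitochondrially encoded genes 1, 3 and 15 were higher in single-cell-like libraries (against 29%, 20.4% and 18.2% of all genes), at medians of 0.16, 0.76 and 1.57. For the imatinib run MT-CYB, the cytochrome b of complex III, was at 1127, 1204, 4955 and 4256 CPM in bulk-like libraries 93 to 96 and at a median of 6209 CPM in single-cell-like ones. In the Hoechst run it was at 1930 CPM in library 92, at 6727 to 8789 CPM in the others and at a median of 5824 CPM in single-cell-like libraries. The size of this difference therefore moved with the split among the bulk-like libraries: against single bulk-like libraries, the list's median ran from 0.87 to 2.79 in the imatinib run and from -0.46 to 2.11 in the Hoechst run. Without library 92 the Hoechst median was -0.11.

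**Figure D4:**
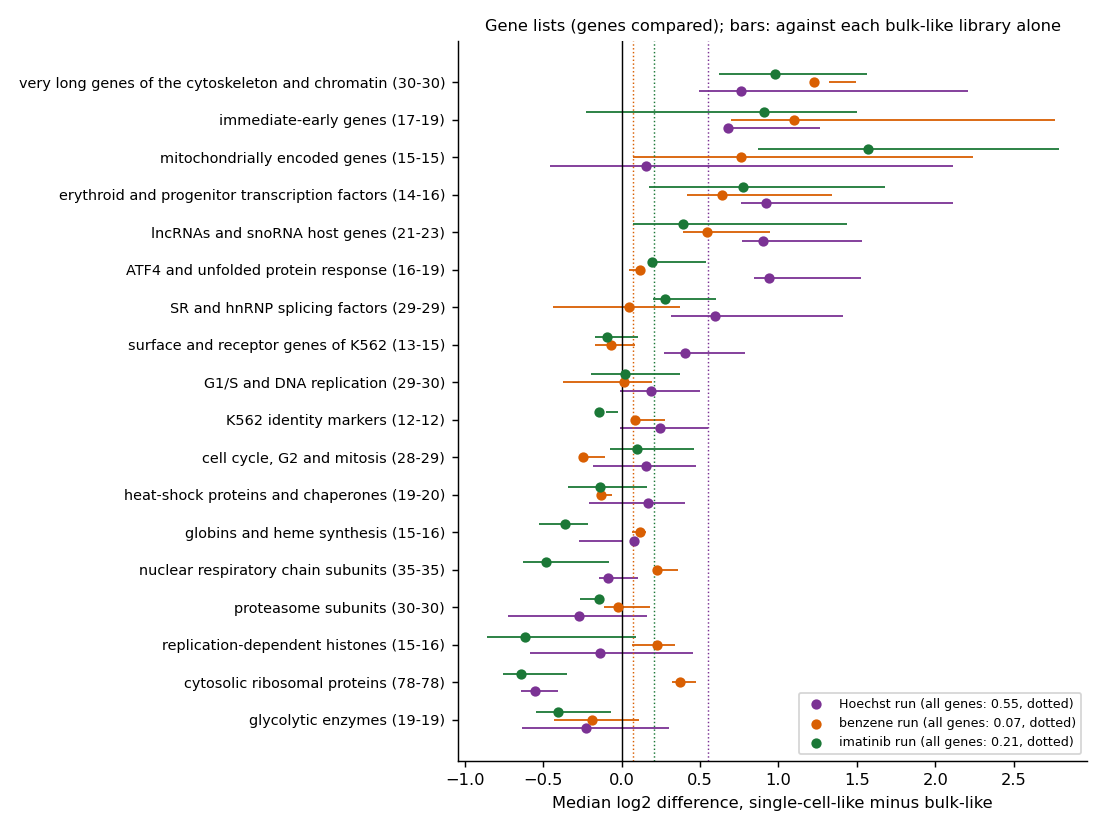
Median difference of each gene list (horizontal axis, log2, single-cell-like minus bulk-like mean CPM + 1) in the 3 runs, with the numbers of genes compared in parentheses, dotted lines at the median of all genes, and bars from the lowest to the highest median when a single bulk-like library stands for its kind. Very long genes lie at 0.76, 1.22 and 0.98, and ribosomal protein genes at -0.56, 0.37 and -0.64 in the Hoechst, benzene and imatinib runs.

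The markers of the line were present in both kinds. GATA1, the master factor of the erythroid lineage, was at 296 to 444, 269 to 341 and 498 to 630 CPM in bulk-like libraries and at medians of 339, 255 and 428 CPM in single-cell-like ones. HBG1, a fetal globin whose near-identical copy HBG2 makes the split of reads uncertain, was at 1344, 2848, 2642, 2344 and 2551 CPM in bulk-like libraries of the Hoechst run and at a median of 506 CPM in single-cell-like ones, 76 of 77 of which were below all 5. Its difference was -2.27 ± 0.18 there, -0.14 ± 0.16 in the benzene run and -0.76 ± 0.14 in the imatinib run. HBE1, the embryonic globin, differed by -1.05 ± 0.17, 0.17 ± 0.18 and -0.68 ± 0.19. ABL1, the kinase gene that the fusion and imatinib concern, differed by 1.72 ± 0.26, 1.89 ± 0.60 and 1.86 ± 0.25. The globin and heme synthesis list had medians of 0.08 (0.03 without library 92), 0.11 and -0.36 and the K562 markers 0.25, 0.09 and -0.15. Of 16 matched markers of other blood and tissue cells, 3 to 4 reached 5 CPM in a kind (among them CD3D, EPCAM and LYZ in each), and they summed to 202 to 245, 98.2 to 110 and 79.9 to 87 CPM in the bulk-like libraries against single-cell-like medians of 143, 47.7 and 58.1 CPM. Their part in the results was not tested.

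The lists of cell cycle genes and of heat-shock proteins were below the median of all genes in all 3 runs. Of the G2 and mitosis genes 1 of 29, 1 of 29 and 4 of 28 were higher in single-cell-like libraries (against 29%, 20.4% and 18.2% of all genes), at medians of 0.16, -0.25 and 0.10. In bulk-like libraries 6 of 29 were higher in the benzene run (against 14.8%) and none in the others. MKI67 was the member furthest up, with differences of 1.52 ± 0.37, 2.76 ± 0.66 and 4.19 ± 0.23. Within the imatinib run its single-cell-like levels were 1.56, 242 and 1045 CPM (lowest, median and highest) and 86 of 91 were above all 4 bulk-like libraries. CENPF, a kinetochore protein, differed by 0.72, 0.73 and 1.73. The G1/S and replication genes had medians of 0.19, 0.02 and 0.02. Replication-dependent histones had medians of -0.14, 0.23 and -0.62, and heat-shock proteins and chaperones 0.17, -0.13 and -0.14. Without library 92 the Hoechst medians were 0.31 for the G2 genes, 0.36 for the G1/S genes, 0.28 for the heat-shock list and 0.007 for the histones, whose direction there thus rests on that library. The ATF4 and unfolded protein response list was at 0.94 in the Hoechst run, with 9 of 19 higher in single-cell-like libraries (7 without library 92, against 29% of all genes), and at 0.12 and 0.19 in the others. In the Hoechst run 2 of the 19 were under 5 CPM in bulk-like libraries and passed the filter only through single-cell-like ones. The list's name-giving factor ATF4 differed by 1.16 ± 0.24, 1.27 ± 0.27 and 1.65 ± 0.17. The surface and receptor genes of K562 had medians of 0.40, -0.07 and -0.09.

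Transcript features went with the difference in ways that were not the same in each run. Among protein-coding genes, in the 20% whose longest annotated transcript had the highest GC content the median difference was 1.23 in the Hoechst run and 0.82 in the benzene run, against 0.37 and -0.63 in the 20% with the lowest. In the imatinib run these groups were at 0.21 and 0.35. By transcript length the widest contrast was in the imatinib run, with the longest 20% at 0.65 and the shortest at -0.20 in the imatinib run, 0.63 and 0.37 in the Hoechst run, and 0.08 and 0.20 in the benzene run. Over these genes, which are not independent replicates, Spearman's rho of the difference was 0.32, 0.48 and -0.11 with GC content and 0.11, -0.02 and 0.37 with length. By gene class, long non-coding RNAs had medians of 0.76, 0.33 and 0.54 against 0.51, 0.03 and 0.19 for protein-coding genes, and processed pseudogenes, which are intronless copies of spliced genes, -0.51, 0.02 and -0.46.

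**Figure D5:**
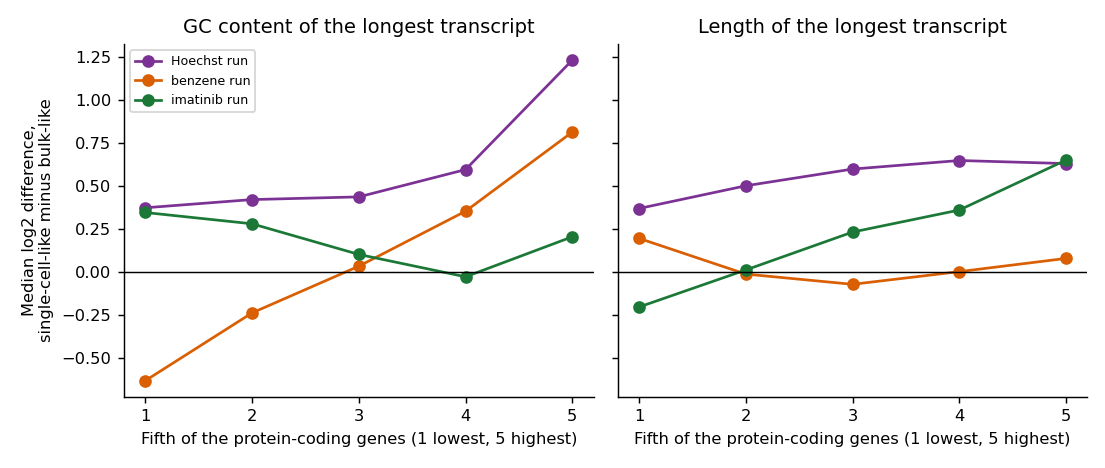
Median difference (vertical axis, log2, single-cell-like minus bulk-like) in 5 equal groups of protein-coding genes ordered from lowest to highest by GC content (left) and by length (right) of the longest annotated transcript, 1 line per run. The group of highest GC content lies at 1.23 and 0.82 in the Hoechst and benzene runs and at 0.21 in the imatinib run, and the group of longest transcripts lies at 0.65 in the imatinib run.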

How the data were processed

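RNA-seq libraries of K562 cells in 3 runs, set apart by the prefix of their titles, were analysed. The authors trimmed reads, mapped them by HISAT2 onto GRCh37 plus the ERCC spike-ins, marked duplicates with Picard 1.92 and counted uniquely aligned reads per Ensembl gene with featureCounts (Subread 1.5.0). The deposited values are raw counts. The authors' CPM table was not used. The submitters' processing notes and the study's methods do not say whether marked duplicates were counted, and reads carry no molecular identifiers. Of 267 columns, 263 matched a title and 4 matched only the benzene run, and 4 titles had no column.

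CPM was computed per 1000000 reads on genes, leaving out 92 ERCC sequences, with Python 3.11.15, numpy 2.4.6 and pandas 2.3.3. Kinds followed the 2 limits given above. Means were compared as log2(mean CPM + 1) over genes with a mean of the kinds of at least 5 CPM. SE is the standard error of the log2 difference, from the SD between libraries of each kind and their number. It counts each library as a unit, although libraries of a run can share cultures and captures. Dropout beyond level is dropout minus the median of genes in the same of 40 equal bins of bulk-like CPM. Scaling factors came from edgeR 4.0.16 and DESeq2 1.42.0 in R 4.3.3, used for nothing else. Names, coordinates, GC content and length came from a later GENCODE annotation of GRCh37, matching 55665 of 63677 genes and 99.0% of reads. Steps were tested on simulated data.

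Members, lists and rules were chosen with earlier results of these data known. Named were the 10 genes furthest in each direction in the run where the difference was smallest, the 10 most and 10 least missed for their level at 50 CPM or more, the 10 highest in bulk-like libraries among those the fewest single-cell-like libraries held, the 2 members of each list furthest up and down, and all K562 markers. Some genes that this rule names are not reported here. Labels do not say whether libraries of a run came from separate cultures. Alternatives covered detection, depth, pseudocount, filter, scaling, averaging, the limit on genes, stain and single libraries left out.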

Additional observations from a re-analysis of the deposited data

Results flagged for a closer look

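Of 90 groups of 4 to 5 bulk-like libraries, 18 held a library set off from the others by a gap above Dixon's critical value. This value was 0.829 for 4 and 0.710 for 5 libraries. Independent groups would give about 1 in 20, or 4.5, by chance. These groups share the same few libraries, and the genes among them were picked by their differences in these data. The count of 18 can therefore not be set against 4.5. Library 92 of the Hoechst run was the one set off in 15 of the 18. Its summed levels were above those of the other 4 bulk-like libraries for the G2 and mitosis genes (7421 CPM against 4926 to 5588), the G1/S and replication genes (6073 against 3074 to 3446), the heat-shock proteins and chaperones (29722 against 12640.0 to 15153), the erythroid and progenitor transcription factors (1126 against 1002 to 1028), the surface genes (3454 against 1529 to 1931) and the SR and hnRNP splicing factors (15096 against 7966 to 9120.4). They were below the others for the long non-coding RNAs and snoRNA host genes (5299 CPM against 33918 to 42315) and the very long genes (1610.0 against 3940 to 4147). By gene, library 92 was above the others for DNAJC14 (59.99 CPM), WDR6 (73.2), RCC1 (171), APH1A (57.2), HNRNPK (1170) and MAGEA3 (390), and below them for WDR27 (1.40).

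In the imatinib run, bulk-like library 96 had 51.3% of its reads in the 500 top genes against 47.98% to 48.4% in the other 3, and LINC01203 at 4.04 CPM against 0 to 0.559 CPM. Library 95 of that run had MAGEA3 at 304 CPM against 390 to 399 CPM.

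For 4 lists, the median difference between the kinds had one sign against every bulk-like library of a run and the other sign against every bulk-like library of another run. The cytosolic ribosomal proteins were at 0.37 in the benzene run and at -0.56 and -0.64 in the Hoechst and imatinib runs. In the benzene and imatinib runs, the nuclear respiratory chain subunits were at 0.23 and -0.48, the globin and heme synthesis genes at 0.11 and -0.36, and the K562 markers at 0.088 and -0.15. The differences between runs were not tested.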

How the results depend on the processing

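No between-kind value had a test, so only sizes, counts and directions can change, and the cause of each change was not tested. No paired analysis was possible because the numbers in the titles name libraries and the kinds share none of them within a run. Genes per library, which the rule itself used, differed between the kinds by 4124, 5422 and 3300.5 (bulk-like minus single-cell-like median; Hoechst, benzene and imatinib runs in this order throughout). The gap was 6817, 7307 and 4915.5 when 1 read sufficed, 1927, 4143 and 2013.5 when 10 reads were needed, and 4271 and 1800 in the benzene and imatinib runs with libraries thinned to 500000 reads.

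Counts of genes higher in single-cell-like libraries were 2986, 2000 and 1753, and 498 in all 3 runs. With a pseudocount of 10 they were 1447, 1054 and 710, and 196 in all 3 runs. With no filter on low levels they were 4629, 3680 and 3310, and 784, and with a minimum of 1 CPM they were 3248 and 2937 in the benzene and imatinib runs. Geometric means gave 160, 47 and 204, and 20. Median-of-ratios factors gave 1862 in the Hoechst run, and setting the median of all genes to 0 gave 1345 there and 257 in all 3 runs. Lowering the limit of the rule by 500 genes gave 1020 in the imatinib run and 245 in all 3 runs.

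Counts of genes higher in bulk-like libraries were 231, 1453 and 327, and 20 in all 3 runs. A pseudocount of 10 gave 93, 836 and 137, and 9. No filter gave 752, 2420 and 626, and 34, and a minimum of 1 CPM gave 564 and 523 in the Hoechst and imatinib runs, and 31. Geometric means gave 4222, 6427 and 3784, and 2219. TMM factors gave 443 in the Hoechst run and 32 in all 3 runs, median-of-ratios factors 487 and 580 in the Hoechst and imatinib runs and 37, and a median of all genes set to 0 gave 948 and 657 in those runs and 62. The count for all 3 runs was 11 with the limit lowered by 500 genes and 9 with it raised by 500. Leaving out 1 library at a time gave 9 to 25, the lowest without library 92 of the Hoechst run.

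Lists with a median above that of all genes numbered 6, 12 and 6 of 19, and 12, 19 and 15 with geometric means. Geometric means also turned the medians of the immediate-early genes in the Hoechst run (-0.39) and, in the benzene run, of the very long genes (-0.78), the erythroid factors (-1.27), the RNA list (-0.72) and the globin list (-1.75). CHTF18 (-0.045) and DUS1L (-0.12) turned with the limit lowered by 500 genes. Of 278 values of the 20 genes named for the largest differences, 276 kept their direction, but only 4 of the 20 genes kept a difference of 1 or more under every alternative.

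Dropout at 10 to 30 CPM was 43.8%, 61.5% and 34.1%. It was 30.9% and 48.96% in the Hoechst and benzene runs where any read counted, 56.96%, 71.9% and 48.8% where 10 reads were needed, 55.9% in the Hoechst run by the single-cell-like level, and 44.98% in the imatinib run after thinning. Genes seen only in bulk-like libraries numbered 0, 7 and 0. In the Hoechst run 1 was found when 1 single-cell-like library was allowed to hold it, and 1 with the limit raised by 500. In the benzene run the count was 1 with no read in any single-cell-like library, 36 with 1 such library allowed, 0 with 10 reads needed in every bulk-like one, 1 after thinning and 57 against Green single-cell-like libraries alone, which gave 2 in the imatinib run. Leaving out 1 library at a time gave 0 to 1, 30 to 41 and 1 to 4. The pool exceeded the bulk-like libraries by 876 and 1287 genes in the benzene and imatinib runs, and by 1392 and 1841 with equal weight for every library. Counts of genes missing more or less often than their level stayed within 1.5 times under the alternatives run. The alternatives of library 91 left out or counted as bulk-like, the scaling by a median of 0 and the columns without a title were added after the data were seen. Reads carry no molecular identifiers, and with 3 to 5 bulk-like libraries per run levels under a few CPM rest on single reads.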
